A study of Homo sapiens with 8 samples.

Results

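The replication-dependent histone genes encode the bulk of the core histones H2A, H2B, H3 and H4 and the linker histone H1. They were taken as the protein-coding genes of GENCODE 44 on chromosomes 1 to 22 whose symbol begins with H2AC, H2BC, H3C or H4C and a number, or is H1-1 to H1-6. This gave 70 genes of 19111 in all, of which 6 encode H1, 17 H2A, 19 H2B, 13 H3 and 15 H4. Open chromatin around their transcription start sites (TSSs) was measured by FAIRE-seq, in which fixed chromatin is sheared and the DNA not bound in nucleosomes is recovered by phenol-chloroform extraction and sequenced. The cells were U2OS, a human osteosarcoma line. A group of 2 WT clones (WT_4 and WT_5) and a group of 2 clones with a knockout (KO) of ZBTB48 (KO_C5 and KO_D2) were each profiled without treatment and with 250 U/ml interferon gamma (IFNγ), which gave 8 libraries in 4 groups of 2. Each clone is a line grown from a single cell and gave 1 library per treatment. Genotype thus rests on 2 clones a side, and p-values for genotype measure the spread between these clones alone. The main IFNγ test took the 8 libraries without the clone, so its p-values measure the spread among libraries within a genotype. The labels state 24 h of IFNγ, but the study describes a longer exposure for FAIRE-seq, and which of them holds is not known.

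Replication-dependent histone genes are transcribed mainly in S phase, when new DNA is packed into nucleosomes. They lie in clusters and mostly lack introns, and their mRNAs end in a conserved stem-loop in place of a poly(A) tail. NPAT, a substrate of CDK2 bound to cyclin E, gathers with the clusters in histone locus bodies and drives their transcription. Many H2A and H2B genes stand head to head and share the DNA between their start sites, where a CCAAT box, a TATA box and an octamer bound by OCT1 are known elements, and H1 promoters carry an AAACACA element. ZBTB48 is a zinc finger protein that binds the telomere repeat TTAGGG and also acts at promoters, and IFNγ signals through receptor-bound JAK kinases.

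The 5 classes lie in 7 places, taken as groups of members parted by gaps of over 500 kb. The largest group, on chromosome 6 between 25723397 and 26285638 (GRCh38), holds 34 members. A further 5 lie between 27125897 and 27147562 and 16 between 27807479 and 27893891 on the same chromosome. On chromosome 1, 11 members lie between 149782689 and 149887965, and H2AC25 and H2BC26 lie between 228434777 and 228463104. H4C16 on chromosome 12 and H2BC12L on chromosome 21 stand alone. The stem-loop consensus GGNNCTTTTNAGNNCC was found within 150 bases after the stop codon of 66 members, and not in H2BC12L, H3C6, H2BC10 and H4C13.

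The H1 promoters are shown because the genes with peaks and those without carry like elements. For each of the 6 H1 genes the 150 bases before the start site are given 5′ to 3′ on the coding strand (RefSeq, GRCh38.p14), with the element AAACACA, the CCAAT box and the letters TATAAA of a TATA box on either strand in capitals. The windows are chr6:26156179-26156328 (plus strand) for H1-4, chr6:26017788-26017937 (minus) for H1-1, chr6:26056471-26056620 (minus) for H1-2, chr6:26234988-26235137 (minus) for H1-3, chr6:27867589-27867738 (minus) for H1-5 and chr6:26108136-26108285 (minus) for H1-6. H1-4 and H1-1 had a peak in all 8 libraries and H1-2 in 6, while H1-3, H1-5 and H1-6 had none in any.
H1-4: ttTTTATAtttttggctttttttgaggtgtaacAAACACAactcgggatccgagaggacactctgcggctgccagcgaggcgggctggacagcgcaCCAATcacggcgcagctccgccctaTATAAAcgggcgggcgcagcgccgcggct
H1-1: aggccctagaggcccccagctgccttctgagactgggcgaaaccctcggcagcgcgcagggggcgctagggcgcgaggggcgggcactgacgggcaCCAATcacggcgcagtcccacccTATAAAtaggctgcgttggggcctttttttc
H1-2: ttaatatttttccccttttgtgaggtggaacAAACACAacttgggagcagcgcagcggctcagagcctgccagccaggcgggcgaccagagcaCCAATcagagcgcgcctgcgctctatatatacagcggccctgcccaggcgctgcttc
H1-3: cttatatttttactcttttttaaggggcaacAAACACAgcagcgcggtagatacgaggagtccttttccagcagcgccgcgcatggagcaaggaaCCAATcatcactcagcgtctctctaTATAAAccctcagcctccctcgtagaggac
H1-5: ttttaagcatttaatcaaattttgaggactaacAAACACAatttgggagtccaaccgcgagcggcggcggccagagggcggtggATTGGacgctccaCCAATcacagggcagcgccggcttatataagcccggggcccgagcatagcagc
H1-6: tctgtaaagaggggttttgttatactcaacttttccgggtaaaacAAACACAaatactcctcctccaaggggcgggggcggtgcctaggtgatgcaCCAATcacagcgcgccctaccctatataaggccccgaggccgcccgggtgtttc
All 6 windows hold CCAAT, and 5 hold AAACACA, which for H1-1 was found only in the wider RefSeq window. TATAAA was found in H1-4, H1-1 and H1-3, so the letters searched did not part the promoters with peaks from those without.

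The DNA between the start sites of 3 H2A and H2B pairs is shown because both genes of such a pair depend on the same short stretch. Capitals mark the octamer ATTTGCAT, the CCAAT box and the letters TATAAA on either strand (GRCh38). The H2BC21/H2AC20 pair, chr1:149886683-149886917 (plus strand), had a peak in 8 libraries, the H2AC15/H2BC15 pair, chr6:27838376-27838568 (plus), in 7, and the H2AC8/H2BC8 pair, chr6:26216689-26216920 (minus), in none.
H2BC21/H2AC20: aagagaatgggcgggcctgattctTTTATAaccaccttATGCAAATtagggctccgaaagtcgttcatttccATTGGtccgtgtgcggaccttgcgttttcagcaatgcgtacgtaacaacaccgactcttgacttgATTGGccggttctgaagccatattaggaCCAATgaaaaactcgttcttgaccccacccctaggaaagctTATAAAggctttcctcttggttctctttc
H2AC15/H2BC15: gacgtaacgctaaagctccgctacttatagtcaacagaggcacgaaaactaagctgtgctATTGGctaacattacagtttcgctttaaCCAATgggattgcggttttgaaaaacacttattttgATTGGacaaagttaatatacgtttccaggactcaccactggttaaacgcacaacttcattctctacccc
H2AC8/H2BC8: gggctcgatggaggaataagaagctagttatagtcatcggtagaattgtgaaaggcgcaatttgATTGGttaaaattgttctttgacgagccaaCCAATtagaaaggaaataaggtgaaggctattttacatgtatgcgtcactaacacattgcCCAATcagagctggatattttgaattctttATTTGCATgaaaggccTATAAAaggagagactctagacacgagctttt
The octamer stands in the pair with a peak in every library and in the pair with a peak in none, and all 3 pairs hold CCAAT on either strand.

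Among the 64 members matched to a RefSeq promoter of 300 bases (250 before and 50 after the start), CCAAT was found on either strand in 84.4%, against 34.6% of all 35116 RefSeq promoters. TATAAA was in 65.6%, against 11.5% of all, and the octamer ATTTGCAT in 39.1%, against 1.77%. The octamer was found in 11 of 16 H2A and 14 of 18 H2B promoters and in none of H1, H3 and H4. AAACACA was in 6 of 6 H1 promoters. Of the H4 promoters, 3 of 13 held CCAAT, whereas every H1, H2A, H2B and H3 promoter matched did. TTAGGG, the hexamer that ZBTB48 binds, was in 15.6% of member promoters and 9.05% of all. No motif searched contains another, but head-to-head promoters share bases, so that 1 match can count for both genes. The 1001 bases around the members' start sites had a median GC content of 51.0% (61.4% over all protein-coding genes) and a median observed over expected CpG ratio of 0.853 (0.728).

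A promoter was called open in a library where a peak reached within 500 bp of any annotated start site of the gene. Histone promoters were open less often than the average promoter in every library. At least 1 library held a peak at 32 of the 70 members (45.7%), against 73.0% of all protein-coding genes. All 8 libraries held one at 5 members (7.14%), against 52.1% of all genes: H2BC21, H2AC20, H1-1, H1-4 and H2BC6. No library held one at 38 members. Between these ends, 2 members were open in 1 library, 1 in 2, 3 in 3, 2 in 4, 3 in 5, 6 in 6 and 10 in 7. As the members were chosen as a list, these shares are a description with no test. A FAIRE-seq library averages over all cells of a culture, so fewer cells with an open promoter and a weaker opening in each cell cannot be told apart. The labels give no cell cycle stage.

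**Figure D1:**
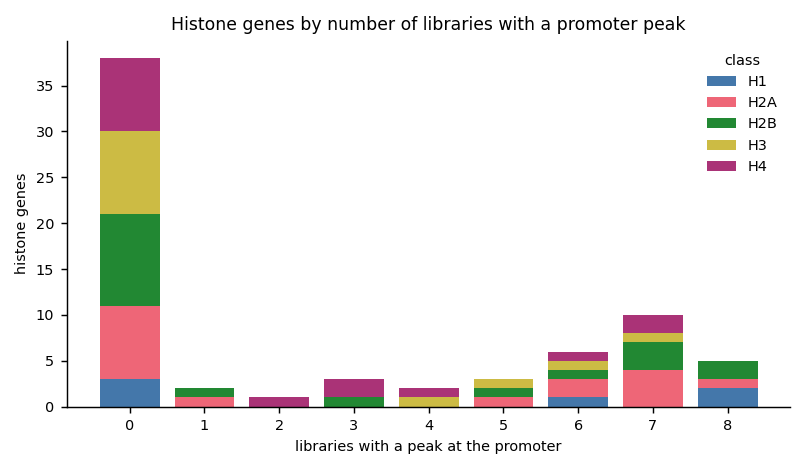
Number of replication-dependent histone genes (y axis) by the number of libraries, 0 to 8, with a FAIRE-seq peak within 500 bp of a start site (x axis), coloured by histone class. The 38 genes with no peak form the tallest bar, 10 genes were open in 7 libraries and 5 in all 8.

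In untreated cells, 21 members were open in WT_4 (30.0%, all genes 64.4%), 30 in WT_5 (42.9%, all genes 66.2%), 16 in KO_C5 (22.9%, all genes 58.7%) and 14 in KO_D2 (20.0%, all genes 58.8%). After IFNγ, 17 were open in WT_4 (24.3%, all genes 60.7%), 30 in WT_5 (42.9%, all genes 69.1%), 26 in KO_C5 (37.1%, all genes 65.2%) and 28 in KO_D2 (40.0%, all genes 62.7%). The mean was 32.5% ± 9.38 for the members and 63.2% ± 3.68 for all protein-coding genes (SD over 8 libraries from 4 clones). The lists behind these shares held 21715, 29567, 19255 and 16730 peaks on chromosomes 1 to 22 and X in untreated cells and 18913, 37533, 27457 and 24727 after IFNγ, in the same order of clones. The library with the longest list was among the 2 with the most open members, and the library with the shortest list had the fewest. When every list was reduced to its 16730 peaks with the highest −log10 p, the members open were 17, 16, 15 and 14 in untreated cells and 15, 16, 9 and 18 after IFNγ. At equal length 3 members were open in all 8 libraries, against 47.1% of all genes, and 26 in at least 1, against 67.1%.

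**Figure D2:**
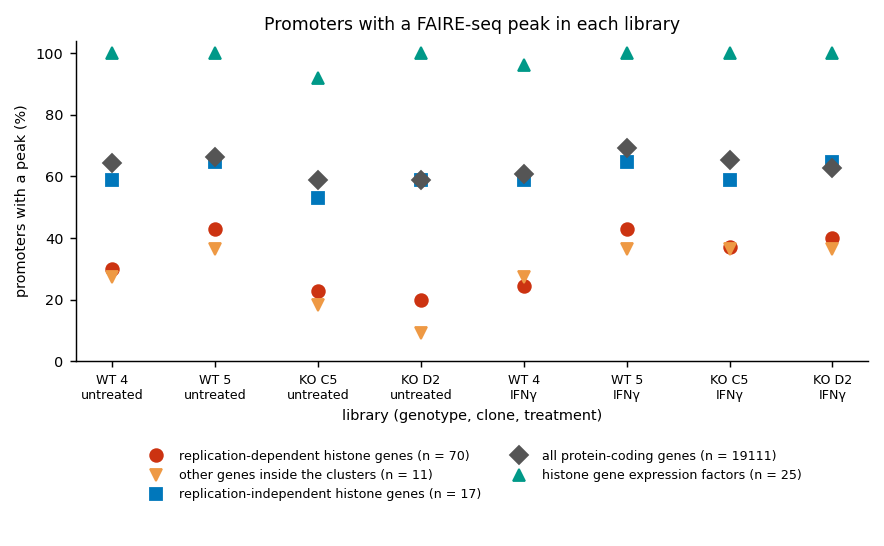
Share of promoters with a FAIRE-seq peak (y axis, %) in each of the 8 libraries (x axis), for 5 sets of genes named in the key. Replication-dependent histone genes lay between 20.0% and 42.9%, below all protein-coding genes, which lay between 58.7% and 69.1%, in every library.

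Histone genes outside the rule for members, listed here as replication-independent, gave other shares. Many genes of this kind, though not all, are expressed outside S phase and carry introns or poly(A) tails. Of 17 replication-independent histone genes, 9 were open in all 8 libraries and 60.3% ± 4.16 on average. Those not open in every library were MACROH2A2 (7 libraries), H2AJ (3) and H3-7, H3-4, H1-8, H3-5, H1-7 and H2BN1 (none), among which H3-4, H1-7 and H1-8 are known from germ cells. Of 25 factors of histone gene expression, 23 were open in all 8, and the others, CASP8AP2 (6) and CDK2 (7), encode a component of histone locus bodies and the kinase of NPAT. Of 16 histone chaperones, 14 were open in all 8, with IPO4 and CHAF1B open in 7. All but 4 of these 41 promoters of the histone supply machinery were open in every library. The 11 other protein-coding genes that overlap the histone clusters or lone members had shares near those of the members. Of these, 5 were open in some library and 1 in all 8, with a mean share of 28.4% ± 10.2. The gene open in all 8 overlaps H2BC12L on chromosome 21, which stands alone, and none inside the clusters of several members was open in every library.

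Peaks at some members could not be read from these lists. The authors removed reads of low mapping quality, and 9 members have a near-identical copy of their 1001-base start site window elsewhere in the genome (at least 95% identity over at least 900 bases). These are H2BC18, H3C13, H4C14, H3C14, H2AC18, H2AC19, H3C15 and H4C15 on chromosome 1 and H2BC12L on chromosome 21, and none was open in any library. A missing peak says nothing about the chromatin of these 9 genes, and shorter stretches of similarity between other members were not treated as copies. Among the 61 members without such a copy, 32 (52.5%) were open in some library and 29 in none, and the mean share open was 37.3% ± 10.8.

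H1 had the highest mean share of open members, 45.8% ± 7.72, with H2A at 39.7% ± 12.5, H2B at 34.2% ± 8.90, H4 at 26.7% ± 14.3 and H3 at 21.2% ± 12.2 (SD over 8 libraries). Each neighbour in this order differed from the next by less than the SD. Without the 9 genes that have near-identical copies, none of which encodes H1, the means were 45.8% for H1, 45.0% for H2A, 38.2% for H2B, 30.8% for H4 and 27.5% for H3, with hardly any gap left between H1 and H2A. At least 1 library held a peak at 3 of 6 H1, 9 of 17 H2A, 9 of 19 H2B, 4 of 13 H3 and 7 of 15 H4 genes. The members open in all 8 libraries encode H1, H2A and H2B, and none encodes H3 or H4.

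H1-4, a linker histone gene, held the strongest peak among members open at their canonical start. Fold enrichment here is the ratio of the fragment pileup at the summit to the local background, each with 1 added. At H1-4 it was 28.9 (WT_4), 18.1 (WT_5), 26.8 (KO_C5) and 19.7 (KO_D2) in untreated cells. After IFNγ it was 19.6, 25.0, 30.4 and 22.1 in the same clones. H1-1 had 16.3, 13.9, 12.3 and 15.8 in untreated cells and 9.56, 18.0, 20.7 and 20.1 after IFNγ. H1-2 had 7.85, 11.4, no peak and 11.1 in untreated cells and no peak, 22.4, 18.4 and 18.4 after IFNγ. H1-4 stood above H1-1 in each library, the ranges of WT and KO overlapped for both, and H1-2 lacked a peak in KO_C5 without treatment and in WT_4 with it. The testis-specific H1-6 and the somatic H1-3 and H1-5 had no peak.

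Among the H2B genes, the core histone partners of H2A, H2BC6 had the highest value of all members in 7 of 8 libraries, 33.6, 24.6, 34.3 and 23.5 in untreated cells and 24.4, 25.3, 40.6 and 20.0 after IFNγ. This peak lies at chr6:26171756-26172274, around an upstream start of the gene at 26172059, while the canonical start at 26183761 had no peak in any library. The value for H2BC6 therefore does not describe the promoter before its coding exon. H2BC21 and H2AC20 share 1 peak region at chr1:149885585-149887264, with 8.95, 12.4, 22.01 and 4.36 in untreated cells and 6.87, 13.0, 6.62 and 14.0 after IFNγ. The 2 KO clones bracket the WT values here, KO_C5 being highest of all without treatment and KO_D2 lowest. H2AC21, on the other side of H2AC20, had 9.05, 12.3, 12.2 and no peak in untreated cells and 7.02, 16.4, 17.8 and 8.22 after IFNγ.

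Of 12 head-to-head pairs of H2A and H2B genes, with start sites 194 to 251 bp apart, 7 had a peak and 5 had none. In the 7 pairs both genes were open in the same libraries, which the window of 500 bp largely fixes, since a peak near either start reaches the window of the other. In each pair with a peak, the same peak served both genes at their canonical starts. In treated KO_C5, the value kept for H2BC11 came from a stronger peak at another annotated start, chr6:27131417-27132096. H2AC11 and H2BC11 shared a peak at the canonical starts in that library too. H2AC12/H2BC12 and H2AC11/H2BC11 were open in every library but untreated KO_D2, with fold enrichment of 6.46 to 19.3 and of 6.84 to 14.7. H2AC15/H2BC15 was open in 7 libraries, all but untreated WT_4, with 3.81 to 14.8, and H2AC7/H2BC7 in 6, all but the untreated KO clones, with 4.88 to 11.9. H2AC6/H2BC4 was open in 5 libraries, with 3.40 to 7.17, and H2AC13/H2BC13 only in WT_5 after IFNγ, with 6.66. The 5 pairs with no peak were H2AC25/H2BC26, H2AC1/H2BC1, H2AC8/H2BC8, H2AC14/H2BC14 and H2AC17/H2BC17, none of which has a near-identical copy. Because of this sharing, the 32 open members rest on 26 separate regions, 9 of which serve at least 2 members and 4 of which were present in all 8 libraries. Of the single genes, H2AC4 was open in 6 libraries (4.25 to 9.51) and H2BC5 in 3 (4.62 to 5.91).

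Genes of H3, which with H4 forms the core tetramer of the nucleosome, had low peaks. H3C2, the strongest by mean percentile, had 7.85, 9.39, no peak and 9.56 in untreated cells and 4.26, 7.01, 7.48 and 10.3 after IFNγ. H3C10 was open in 6 libraries (4.62 to 10.4), H3C1 in 5 (4.54 to 11.9) and H3C4 in 4 (5.59 to 6.81). The 11.9 at H3C1, in untreated WT_5, belongs to a peak shared with H4C1, with its summit near the H4C1 start. KO_C5 without treatment held a peak at no H3 gene, and WT_5 held one at all 4 with and without IFNγ.

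H4C16 and H4C8 led the H4 genes. H4C16 had 19.5, 10.4, no peak and 7.06 in untreated cells and 18.3, 16.5, 11.4 and 7.95 after IFNγ, counting 5 annotated starts, and its canonical start was open in 4 libraries. H4C8 had no peak, 16.3, 6.90 and 10.9 in untreated cells and 4.94, 16.9, 15.4 and 13.1 after IFNγ. Untreated WT_4 was the highest library for H4C16 and had no peak at H4C8. The H4C16 values of WT_4, with and without IFNγ, and of untreated KO_D2 lie at another annotated start than the canonical one. In treated WT_5 the summit lay 1060 bp downstream of the canonical start. H4C1 was open in 6 libraries (3.95 to 17.9), H4C5 in 4 (4.58 to 12.4), H4C2 in 3 (7.35 to 8.10), H4C9 in 3 (3.99 to 6.93) and H4C11 in 2 (5.68 to 5.93).

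**Figure D3:**
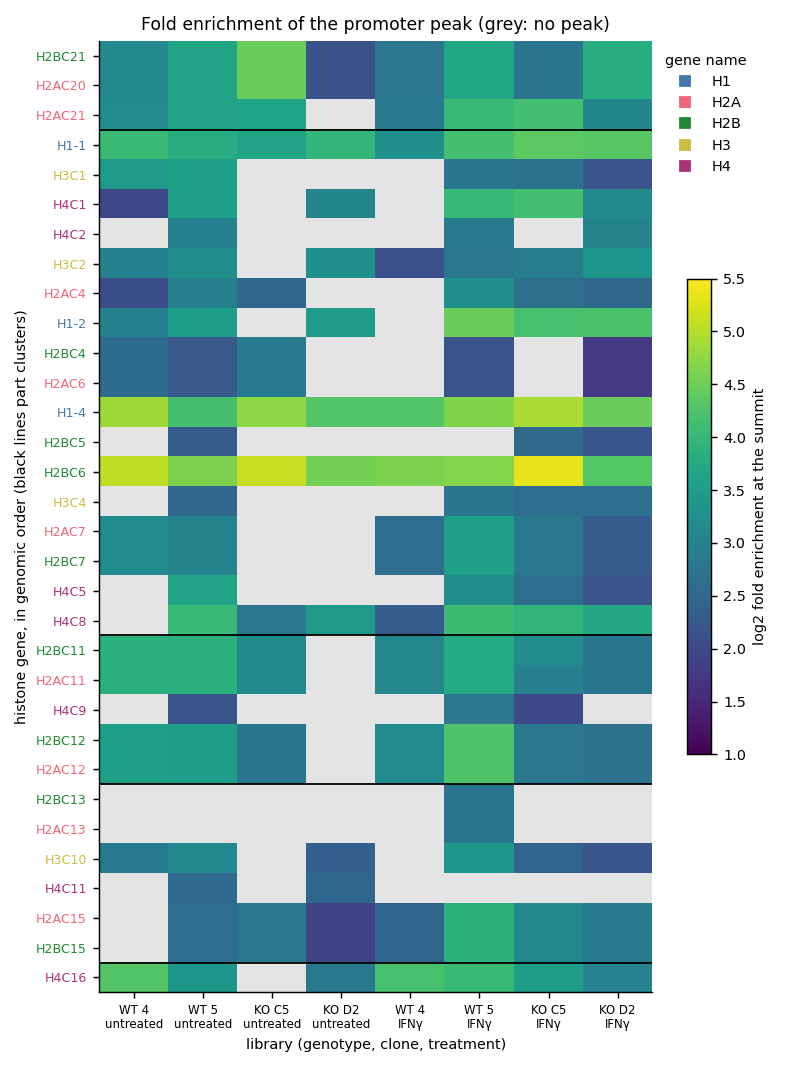
Log2 fold enrichment at the summit of the promoter peak (colour) for the 32 histone genes with a peak in some library (rows, in genomic order) in the 8 libraries (columns), with grey for no peak. H1-1, H1-4, H2BC6, H2BC21 and H2AC20 are coloured in every column, and the untreated KO clones hold the most grey.

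Open histone promoters had weak peaks. The median percentile of −log10 p of members with a peak, within the list of the same library, was between 22.9 (KO_D2 untreated) and 56.0 (WT_5 with IFNγ), and that of all protein-coding genes with a peak between 66.1 and 81.6. The median fold enrichment was 7.02 to 13.0 for members and 17.1 to 33.8 for all genes. The fragment pileup at the summit of member peaks ran from 6 (H3C2, treated WT_4) to 89 (H2BC6, treated KO_C5). The lowest pileup of any peak in a list was 5 or 6, so some members were called open on few fragments. H2BC6, at a mean percentile of 73.9, and H1-4, at 67.1, stood highest, and H1-1 followed at 54.5. H4C16 (45.1, over all its annotated starts) led the H4 genes, H2AC20 (44.1) the H2A genes and H3C2 (24.9) the H3 genes. A library without a peak counts as 0 here. The lowest in each class were genes with no peak at all.

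**Figure D4:**
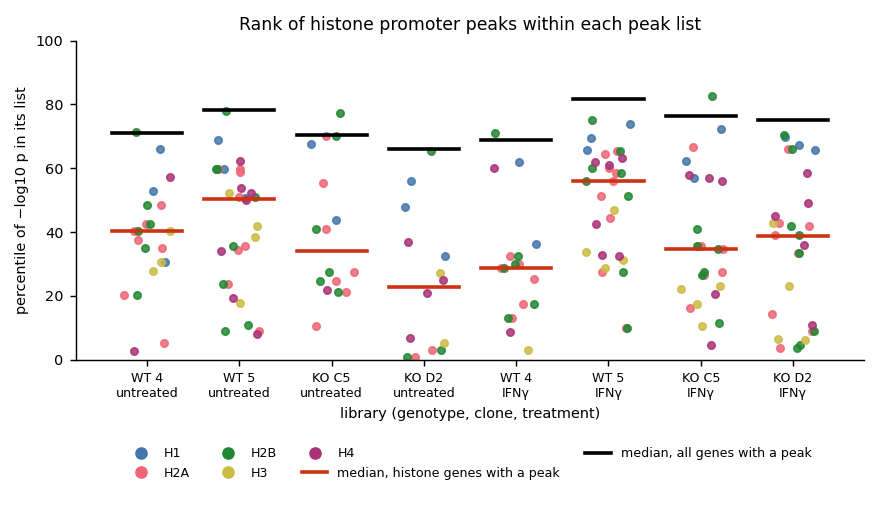
Percentile of −log10 p within its library's peak list (y axis) for each open histone promoter (points, coloured by class) in the 8 libraries (x axis), with the median of open histone promoters (red lines) and of all open promoters (black lines). In every library the red line lies below the black one, at 22.9 to 56.0 against 66.1 to 81.6.

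Members without a peak lay both in long stretches and singly or in pairs between members with a peak. The 5 members between 27125897 and 27147562 on chromosome 6 (H2BC11, H2AC11, H4C9, H2BC12 and H2AC12) were all open in some library, 77.5% ± 32.8 on average, though none was open in untreated KO_D2. In the largest cluster, 17 of 34 members were open in some library, as were 6 of 16 in the cluster from 27807479 to 27893891. Between chr6:26205458-26284065, a stretch of 78.6 kb, no library had a peak, and the start sites of H2BC8, H2AC8, H3C6, H1-3, H4C6, H4C7, H3C7, H2BC9, H3C8 and H2BC10 lie in it, none with a near-identical copy. A second stretch of 38.2 kb, chr6:27838542-27876741, holds the starts of H2AC16, H1-5, H3C11 and H4C13 besides that of H2BC15 at its edge, and another, chr6:27877088-27894210, holds those of H3C12, H2AC17 and H2BC17. The remaining members with no peak and no copy were H2AC1, H2BC1, H2BC3, H3C3, H4C3, H1-6, H4C4, H2AC14, H2BC14 and H4C12 on chromosome 6 and H2AC25 and H2BC26 on chromosome 1. On chromosome 1 the stretch of 92.3 kb without peaks, chr1:149793264-149885583, holds 8 members, and all 8 have near-identical copies, in contrast to the stretches on chromosome 6.

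Members open in most libraries and members open in none held the promoter motifs in these shares. A member counts here as open by any annotated start, while motifs and GC content are those at the canonical start. H2BC6, with no peak at its canonical start in any library, is thus among the open members, as is H4C16, open there in 4 libraries. CCAAT was in 89.5% of the 19 matched members open in 6 to 8 libraries and in 88.5% of the 26 matched members open in none and without a copy. TATAAA was in 68.4% and 57.7% of them, and the octamer in 52.6% and 46.2%. TTAGGG was in 26.3% and 11.5%, that is in 5 and 3 promoters. The 5 were H2BC21, H2AC20, H2BC11, H2AC11 and H2BC12, and the 3 were H2BC9, H2AC14 and H2BC14. Both lists include both genes of head-to-head pairs, so they rest on fewer separate places than promoters. The 11 members open in 1 to 5 libraries had other shares, with CCAAT in 72.7%, TATAAA in 81.8%, the octamer in 18.2%, or 2 promoters, and TTAGGG in 0. They include the H4 genes H4C2, H4C5, H4C9 and H4C11 and the H3 genes H3C1 and H3C4. No matched H3 or H4 promoter held the octamer, and 3 of 13 H4 promoters held CCAAT. The part of class in these shares was not tested. The median GC content was 53.0% in the first set and 49.6% in the second, and the ranges overlapped, 48.0% to 57.9% and 43.9% to 59.2%.

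Peaks of the classes were placed differently around the canonical start. All 4 H3 genes had their median summit downstream, by 92 (H3C10), 133 (H3C1), 140 (H3C2) and 146 bp (H3C4), and every one of their 22 peaks had its summit downstream. The H3C1 peak in untreated WT_5 had its summit 1075 bp downstream, outside the window of 500 bp. It was the same peak as that of H4C1, with its summit at -123 bp from the H4C1 start. All 3 open H1 genes had it upstream, at -91.5 (H1-1), -43 (H1-2) and -14 bp (H1-4). For H4, 5 of 7 genes had it upstream, and H4C16 (84) and H4C9 (176) downstream. H2A genes lay between -524 and 158 bp and H2B genes between -361 and 341 bp, where in head-to-head pairs 1 peak is upstream of one gene and may be downstream of its partner. Over all members 38.7% of 31 genes had a downstream median, against 18.3% of 13110 protein-coding genes. The median width of the member peaks was 457 bp, against 548 bp for all genes.

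**Figure D5:**
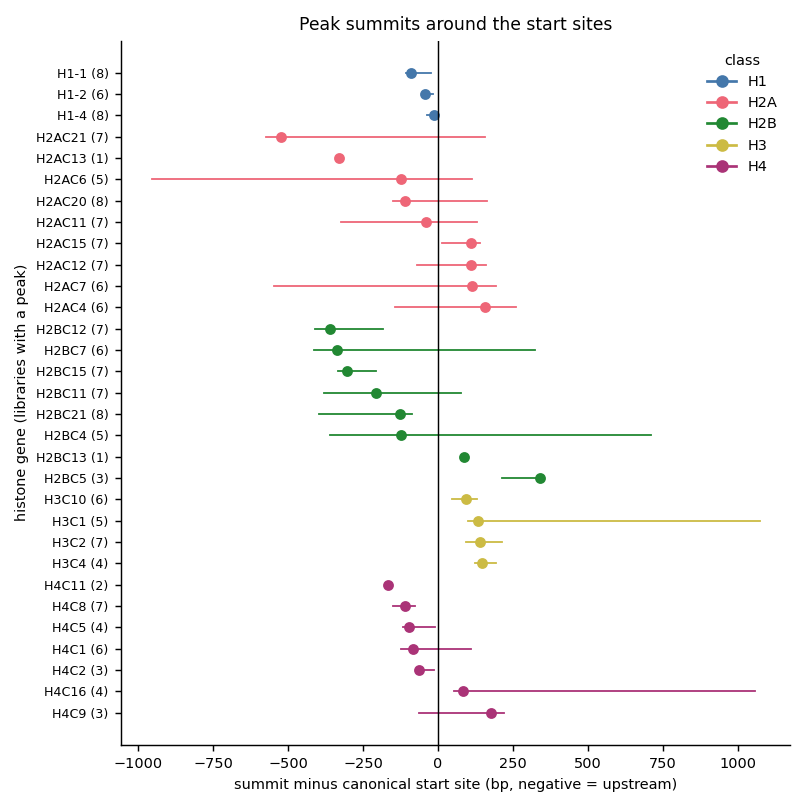
Distance of the peak summit from the canonical start site (x axis, bp, negative upstream) for 31 histone genes (y axis, with the number of libraries that had a peak), as the median (point) and the range over libraries (line), coloured by class. All 4 H3 medians lie right of 0, between 92 and 146 bp, and all 3 H1 medians left of it.

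Loss of ZBTB48 was compared with WT to ask whether the histone promoters depend on the factor. No member was open in all 4 WT and no KO libraries (0.246% of all genes were), and none in all 4 KO and no WT libraries (0.0% of all genes). More WT than KO libraries were open at 16 members (22.9%, all genes 13.4%) and more KO than WT libraries at 4 (5.71%, all genes 3.67%): H2BC5, H4C8, H2AC15 and H2BC15. Only promoters open in some but not all libraries can differ so, between genotypes or treatments. These were 27 of 70 members and 3995 of 19111 genes. Open members per clone averaged 24.5 ± 7.78 over the WT clones (SD, n = 2) and 21 ± 0.0 over the KO clones (SD, n = 2), a difference smaller than the spread between the WT clones. At equal list length these means were 16 ± 0.0 and 14 ± 2.83, a difference smaller than the spread between the KO clones. There the 16 became 12 (17.1%, all genes 9.73%) and the 4 became 9 (12.9%, all genes 5.82%). With full lists, the difference in clone means, KO minus WT, was -3.5 members, and -1.75 when distinct regions were counted in place of genes. The WT clones differed from each other, since H4C2, H3C4, H4C5 and H4C9 were open in both WT_5 libraries and in neither WT_4 library (5.71%, all genes 3.84%), while the reverse was seen at none (all genes 0.44%).

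Peak height could be tested at the 5 members open in all 8 libraries, together with the other promoters of that kind, 9963 in all. A filter on peaks in every library keeps only constant promoters, so the other members were not tested. Values were log2 fold enrichment, centred on the median of each library and averaged per clone, and limma's moderated test with Benjamini-Hochberg adjustment called none of the 9963 higher or lower in KO (0.0% each way, 572 at an unadjusted p under 0.05). The change in KO was 0.85 ± 0.29 (SE) for H1-1, with an adjusted p of 0.79 from limma, 0.70 ± 0.27 for H1-4, 0.68 ± 0.30 for H2BC6 and 0.55 ± 0.31 for H2BC21 and H2AC20, all with that same adjusted p. The value for H2BC21 and H2AC20 rested on single KO libraries, at 0.05 without untreated KO_C5, 0.11 without treated KO_D2, 0.98 without untreated KO_D2 and 1.04 without treated KO_C5. A fit of all 8 libraries with the clone as a block had 859 promoters at an unadjusted p under 0.05 and 0 calls. With no centring they were 0.26, 0.12, 0.09 and -0.04, beside a median of -0.58 over all tested promoters. On the summit pileup in place of the ratio, centred again, they were 0.13, -0.09, 0.01 and 0.15. H1-1 and H2BC6 had a positive value under all 3 scalings, and H1-4, H2BC21 and H2AC20 changed sign under 1 of them.

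IFNγ was compared with no treatment to ask whether the histone promoters respond to the cytokine. More IFNγ than untreated libraries were open at 20 members (28.6%, all genes 11.6%) and more untreated than IFNγ libraries at 3 (4.29%, all genes 5.11%), namely H2BC4, H2AC6 and H4C11. Treated libraries had 25.25 ± 5.74 open members and untreated libraries 20.25 ± 7.14 (SD, n = 4). The difference was smaller than either SD, but each SD includes the differences between clones and genotypes, and each clone gave both libraries. The KO clones stood for the difference in means, since KO_C5 went from 16 to 26 and KO_D2 from 14 to 28. WT_4 went from 21 to 17 and WT_5 stayed at 30. The peak lists of both KO clones were also longer after IFNγ and that of WT_4 shorter. At equal list length the 20 became 7 (10.0%, all genes 7.56%), the 3 became 9 (12.9%, all genes 8.78%), and the means were 14.5 ± 3.87 with and 15.5 ± 1.29 without IFNγ. The part of list length in the first difference was not tested otherwise.

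In the KO clones, 6 members were open in both IFNγ libraries and in neither untreated library (8.57%, all genes 2.21%): H3C1, H2BC5, H3C4, H2AC7, H2BC7 and H4C5. All lie in the largest cluster, H2AC7 and H2BC7 share a peak, and each of the 6 was also open in untreated WT_5. Their fold enrichment in the treated KO_C5 and KO_D2 libraries was 6.40 and 4.54 at H3C1, 7.01 and 4.88 at H2AC7, 6.10 and 4.58 at H4C5, 5.91 and 4.62 at H2BC5 and 6.12 and 6.22 at H3C4. These are among the low peaks of their lists, at percentiles from 4.49 to 27.3, and at equal list length none of the 6 kept the pattern (0.947% of all genes had it). In WT no member was open in both IFNγ and neither untreated library (all genes 0.126%), and none in either genotype had the reverse (all genes 0.22% in WT and 0.0994% in KO).

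Of the 9963 constant promoters, limma, with genotype as a covariate, called none higher or lower after IFNγ (0.0% each way, 354 at an unadjusted p under 0.05). With the clone as a block, which the labels allow, 1490 had an unadjusted p under 0.05 and 1 was called higher, not a member. Without the block, the difference was 0.16 ± 0.22 for H1-1, 0.05 ± 0.17 for H1-4, -0.12 ± 0.21 for H2BC6 and -0.10 ± 0.49 for H2BC21 and H2AC20, each smaller than its SE (log2, centred, with limma adjusted p from 0.85 to 0.95). The large error at H2BC21 and H2AC20 reflects opposite values in the KO clones, -1.98 in KO_C5 and 1.74 in KO_D2. A difference between genotypes in the IFNγ response was tested on the within-clone differences, and limma called none of 9963 (0.0% each way, 723 at an unadjusted p under 0.05). At H1-1 this difference was 0.59 ± 0.28 with an adjusted p of 0.64 from limma, and it was 0.06 ± 0.29 at H1-4 and 0.05 ± 0.33 at H2BC6. At H2BC21 and H2AC20 it was -0.04 ± 1.02, and leaving out 1 KO library moved it to 1.83 (untreated KO_C5), 1.82 (treated KO_C5), -1.90 (untreated KO_D2) or -1.89 (treated KO_D2).

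The remaining checks bear on all these values. The ZBTB48 promoter itself was open in all 8 libraries, with 17.5 to 34.7 in KO and 38.1 to 78.6 in WT, and a promoter peak does not test the knockout. Of 8 genes of the osteoblast lineage, RUNX2 and SP7 were open in all 8 libraries, COL1A1 in 7, SPARC in 5, ALPL in 4 and BGLAP in 2, and SPP1 and COL1A2 in none. The blood genes PTPRC, CD3E and CD79A were open in no library.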

How the data were processed

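FAIRE-seq peaks of 8 U2OS libraries (2 WT and 2 ZBTB48 KO clones, untreated or with IFNγ) were analysed. The authors trimmed reads with Trimmomatic, aligned them to GRCh38 with Bowtie2 2.2.5, filtered out poorly mapped reads with SAMtools 1.14 and called peaks per library with MACS2 2.2.7.1, as the submitters' processing notes and the methods state. The deposited fold enrichment is a ratio of pileup to local background at the summit, each with 1 added. The authors' caller also gave each peak a deposited −log10 p and a −log10 q value. Peak lists hold no reads per gene, so the depth at a promoter without a peak cannot be read from them. Whether input DNA was the control is not given in the sources used here.

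The members and lists were chosen with earlier results of these data known. The rule for named genes took every member with a peak in none or only some libraries, the highest and lowest of each class by mean percentile, and the 3 largest changes per contrast. Peaks on chromosomes 1 to 22 were joined to GENCODE 44 start sites with a window of 500 bp, and the strongest by −log10 p was kept. The pileup at each summit was recovered from the ratio and the −log10 p of a peak, and for 100.0% of peaks a whole number of fragments gave the −log10 p within 0.01% (or within that share of 1 where it was lower). Copies were sought with BLAST+ 2.17.0. Log2 fold enrichment, centred per library and with no further pseudocount, was tested with limma 3.58.1 (R 4.3.3) at an adjusted p of 0.05. The tests were KO against WT on clone means, IFNγ against untreated with genotype as covariate, and their interaction on within-clone differences. Steps were tested on simulated data. Per the labels, each clone gave both an untreated and an IFNγ library. The deviations of such a pair from the group means correlated at 0.736 in WT and 0.407 in KO. Untreated WT and KO libraries with the same replicate number come from different clones, and their deviations correlated at 0.446, above the KO value. The correlation in KO therefore cannot tell libraries of the same clone from libraries of different clones, and the pairing there rests on the labels. Alternatives were windows of 250 and 1000 bp, the canonical start alone, the summit in the window, a −log10 q of 3, a fold of 4, lists of equal length, no centring, summit pileup, the clone as a block, members without copies, and omission of each replicate. Members on chromosome 6 alone and distinct regions were added after seeing the data. Peaks on other sequences were not used here. One marker of the blood list is not reported here.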

Additional observations from a re-analysis of the deposited data

Results flagged for a closer look

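At H2BC6, the untreated WT_4 library had a fold enrichment of 33.6, apart from the other 3 WT libraries, which lay between 24.4 and 25.3. It was the only such value in 24 checks of 4 libraries each, and chance gives about 1 in 20. The peak lies at the upstream start of H2BC6.

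At H1-1, the response to IFNγ had opposite signs in the genotypes once values were centred on the library median, at -0.133 (WT_4) and -0.127 (WT_5) against 0.503 (KO_C5) and 0.408 (KO_D2) on centred log2 fold enrichment. The difference of 0.585 gave an adjusted p of 0.64 in limma over 9963 promoters, so it did not pass the correction. Without centring the WT clones went opposite ways, from 16.3 to 9.56 in WT_4 and from 13.9 to 18.0 in WT_5, while both KO clones went up, from 12.3 to 20.7 and from 15.8 to 20.1, and the difference was 0.75 on the log2 scale (limma adjusted p of 1.0).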

How the results depend on the processing

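Peak lists limit these results: a promoter just under the caller's threshold counts as closed, list length differed by library, and only 5 members could be tested for peak height. Lists of equal length gave 3 members open in all libraries in place of 5, and turned the difference in open members, IFNγ minus untreated, from 5.0 to -1.0. Members on chromosome 6 alone gave 3 open in all libraries. Leaving out each replicate in turn gave 5 to 10 members open in all libraries (8 without untreated WT replicate 1 and 10 without untreated KO replicate 2), 30 to 32 open in at least 1, a difference of 2.92 to 8.25 for IFNγ minus untreated, of -7.0 to 0.0 for KO minus WT (0.0 without untreated KO replicate 2, -7.0 without KO_IFNg replicate 2), and a gap of -31.9 to -29.6 percentage points to all genes. The limma fits were repeated for the windows, the canonical start, the −log10 q and fold limits, equal lists, no centring, pileup and each replicate left out, and with the block for KO and IFNγ but not for their interaction, and called 0 of the members tested in each. The other alternatives concern counts of open members alone. Over all promoters, the clone as a replicate block gave 1 call for IFNγ (0 of the members) in place of 0, and no centring gave 15 lower calls for KO and 3 higher for IFNγ in place of 0. The cause of these shifts was not tested.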
